A study of Mus musculus with 199 samples.

Results

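Transcripts of 10 genes of the actin cytoskeleton were examined in mouse small-cell lung cancer cells. They are the cytoplasmic actins Actb and Actg1, the beta-thymosins Tmsb4x and Tmsb10, the profilins Pfn1 and Pfn2, the cofilin Cfl1, the Arp2/3 complex subunits Arpc2 and Arpc3, and the tropomyosin Tpm3. The 10 genes, of 31581 in the deposited table, were chosen by symbol with their measured levels across the groups in view. Their levels and the differences between groups are therefore given as descriptions, with no test of a single gene. The values that chose them were CPM, a gene's counts scaled to the same total in every library, here computed over genes alone without the ERCC spike-in transcripts. All 10 symbols were found once in the table, and all 10 passed the filter on low counts in every comparison.

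Actin exists as free monomers and as filaments, and cells move and change shape by shifting actin between these forms. Beta-thymosins hold monomers in reserve, profilins hand them to growing filament ends, and cofilin severs old filaments and returns their subunits. The Arp2/3 complex starts branches on existing filaments, and tropomyosins coat filaments and govern which other proteins bind them. Small-cell lung cancer is a neuroendocrine tumour whose cells grow in suspension as clusters in culture and spread early to the liver. The transcription factor SRF, with its cofactors Mkl1 and Mkl2, senses free actin monomers and drives actin genes through a promoter element called the CArG box.

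The study sampled KP1, a mouse small-cell lung cancer line labelled Rb1-/-Trp53-/-, in 3 environments. These were spheroids in culture, colonies in the livers of nude (immunocompromised) mice, and colonies in the livers of F1 (immunocompetent) mice. Laser capture took 10 cells at a time from 8 µm cryosections, which gave 28 spheroid, 33 nude liver and 31 F1 liver libraries. Pool-and-split controls, libraries of the same size from pooled material, numbered 20, 35 and 24. A further 24 10-cell libraries came from spheroids of RPC, a pre-cancerous line labelled Rb1-/-Trp53-/-p130-/+Crebbp-/-. Loss of Rb1 and Trp53 is thus shared by every group, so no group has the wild-type alleles. Single bulk spheroid libraries, made with another extraction and library kit, came from KP1 and from KP2, KP3 and KP5, which are labelled Rb1-/-Trp53-/-Ptch1+/lacz, Rb1-/-Trp53-/-Axin2+/lacz and Rb1-/-Trp53-/- BAT-GAL. Each line is 1 model, so KP1 against RPC compares 2 lines and not genotypes in general. The labels give no host age and no number of animals, cultures or pools, so errors and p-values describe captures and not animals.

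Total counts per library ran from about 1008000 to 7616760 in captured libraries and from about 17266200 to 42448000 in the bulk libraries. All 10 neuroendocrine markers had counts in every group, with a median summed level of 2082 CPM in spheroids, 1402 CPM in nude liver and 1697 CPM in F1 liver. The 12 hepatocyte markers summed to a median of 1.11 CPM in spheroids (range 0 to 83.6), 861 CPM in nude liver (33.4 to 4357) and 199 CPM in F1 liver (0 to 2360). Alb, Apoa1 and 6 others were at 0 in all spheroid 10-cell libraries. The 5 erythrocyte genes had medians of 0, 551 and 1622 CPM in the same order. The 10 leukocyte and macrophage genes had medians of 18.6, 43.3 and 114 CPM, and the 11 endothelial and stellate genes 56.0, 223 and 117 CPM. Markers of these other cell types thus had counts in the liver captures. Which cells the counts came from was not tested, nor was their part in each liver result below, beyond fits with the hepatocyte or the leukocyte level as a covariate. The pathway genes named below whose calls those fits ended are given. The hepatocyte level itself differed between the groups compared, as the medians above show, so that covariate overlaps with the group. In those fits the parts of hepatocyte level and group in a lost call or a shifted value cannot be fully told apart. A transcript that is lower in a capture may come from fewer cells that express it or from less RNA per cell, and these cannot be told apart. Libraries also fell into sets on measures that the labels do not explain. Of the spheroid libraries, 9 held at least 0.1% ERCC counts and 19 held less, and of the F1 liver libraries 26 had at least 100 CPM of the pseudogene Rpl19-ps11 and 5 had less, both limits having been set after the values were seen.

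Of the 2 cytoplasmic actins, Actb (ENSMUSG00000029580, GRCm38 chromosome 5, 142903115 to 142906754, minus strand) encodes beta-actin and Actg1 (ENSMUSG00000062825, chromosome 11, 120345690 to 120348542, minus strand) gamma-actin. Their coding sequences are 1128 bases each and 88.7% identical, with 128 substitutions and no gap, which bears on whether short reads can tell them apart. Their first 60 coding bases, from the GENCODE M21 transcripts, are shown 5′ to 3′ with the 9 bases that differ in capitals.
Actb: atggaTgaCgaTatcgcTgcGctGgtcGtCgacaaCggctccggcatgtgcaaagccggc
Actg1: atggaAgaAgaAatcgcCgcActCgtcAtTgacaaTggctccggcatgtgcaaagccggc
This stretch encodes the start of both proteins, where the few residues that tell them apart are known to lie.

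Both actin transcripts were higher in liver colonies than in spheroids, and the gap was larger in nude liver for Actb and in F1 liver for Actg1. Actb ran from 28.6 to 1093 CPM with a median of 238 CPM over the 28 spheroid libraries. In nude liver it ran from 208 to 3445 CPM with a median of 1064 CPM over 33 libraries, and in F1 liver from 85.4 to 1816 CPM with a median of 631 CPM over 31 libraries. The ranges overlapped, but 32 of 33 nude liver libraries and 26 of 31 F1 liver libraries lay above the spheroid median. The fitted log2 fold change over spheroids, from edgeR with TMM scaling, was 1.89 (SE 0.29) in nude liver and 1.36 (SE 0.29) in F1 liver. RPC, at 91.7 to 1474 CPM with a median of 324 CPM, was close to KP1 spheroids in Actb, with a log2 fold change of 0.13 (SE 0.31). With the hepatocyte level as a covariate the nude liver value was 1.37, and with the 5 F1 libraries of low Rpl19-ps11 alone the F1 value was 0.75.

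Actg1 ran from 754 to 3839 CPM in spheroids, with a median of 1269 CPM. It ran from 430 to 6253 CPM in nude liver (median 3122 CPM) and from 527 to 6887 CPM in F1 liver (median 3326 CPM). Of the liver libraries, 31 of 33 in nude and 30 of 31 in F1 mice were above the spheroid median, while 1 in each liver group lay below the lowest spheroid library. The log2 fold changes over spheroids were 0.88 (SE 0.15) and 1.47 (SE 0.15). RPC spheroids had 565 to 3414 CPM with a median of 2022 CPM, and 22 of 24 libraries were above the KP1 median, a log2 fold change of 0.43 (SE 0.19). F1 over nude liver was 0.62 (SE 0.16) for Actg1 and -0.53 (SE 0.25) for Actb, so the fitted values of the paralogs had opposite signs between the hosts. That Actg1 value depends on scaling: without any scaling beyond the library total it was 0.18, where the median of all genes was -0.15 in place of 0.26 with TMM.

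The balance between the paralogs within a library does not depend on library scaling. In spheroids, the median library held 6.28 times as much Actg1 as Actb in CPM + 1, and no library of 28 held more Actb. In nude liver the median ratio was 2.71, and 4 of 33 libraries held more Actb than Actg1. F1 liver was back at 6.39 and RPC at 6.14, with no library over parity in either. The log2 ratio of Actb over Actg1 was -2.62 ± 1.19 (SD, n = 28) in spheroids, -1.36 ± 1.12 (n = 33) in nude liver and -2.55 ± 1.08 (n = 31) in F1 liver, so the shift in nude liver was about as large as the SD within a group. Pools gave -2.32 ± 0.85 (n = 20), -1.25 ± 0.86 (n = 35) and -3.34 ± 1.83 (n = 24). These ratios compare groups and say nothing of which protein is more abundant, since the 2 transcripts differ in length.

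**Figure D1:**
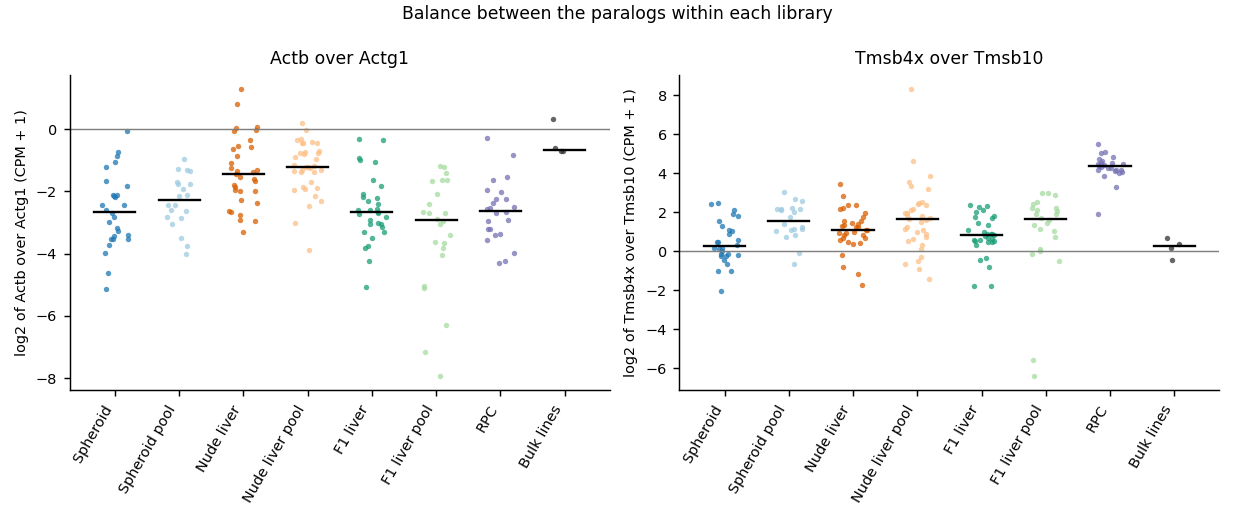
Log2 ratio of Actb over Actg1 (left) and of Tmsb4x over Tmsb10 (right), each in CPM + 1, in every library by group, with 1 point per library and a black line at the group median. For Actb over Actg1 the medians of nude liver libraries (-1.44) and pools (-1.21) lie above those of the other captured groups, with ranges that overlap them, and the RPC median of 4.34 lies above the median of every KP1 group for Tmsb4x over Tmsb10.

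Of the 9 genes with a window in the RefSeq table of GRCm38.p6, which are all but Actb, Actg1 was the only one whose promoter held a CArG box in the 250 bases before to 50 bases after the start. It lies 90 to 81 bases before the start used in that table, which is downstream of the outer end of the gene given above (120348542), so the box is nearer to that end. It is shown in capitals within 60 bases of chr11:120348551-120348610, minus strand, because it is the element through which SRF is known to act on actin genes.
Actg1 promoter: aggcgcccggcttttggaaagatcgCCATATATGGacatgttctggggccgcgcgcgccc
The pattern reads the same on both strands, and it was found in 9 of 97 other actin pathway genes with a window (among them Acta1, Actc1, Srf, Vcl and Myl9), or 9.28%, beside 1.81% of all genes with a window. Counted by window, 1.63% of all 32851 windows held it. A match describes these letters and does not show that SRF binds there.

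The beta-thymosins Tmsb4x (ENSMUSG00000049775, chromosome X, 167207093 to 167209315, minus strand) and Tmsb10 (ENSMUSG00000079523, chromosome 6, 72957347 to 72958748, minus strand) encode small proteins that bind actin monomers. Their coding sequences, from GENCODE M21, are 135 bases each with the stop codon and 70.4% identical. Both are shown whole, 5′ to 3′, with the 40 bases that differ in capitals, because these 2 of the 10 genes had the largest differences between the lines.
Tmsb4x: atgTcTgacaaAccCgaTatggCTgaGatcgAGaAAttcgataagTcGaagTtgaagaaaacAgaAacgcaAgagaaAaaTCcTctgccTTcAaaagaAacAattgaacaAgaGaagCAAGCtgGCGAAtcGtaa
Tmsb10: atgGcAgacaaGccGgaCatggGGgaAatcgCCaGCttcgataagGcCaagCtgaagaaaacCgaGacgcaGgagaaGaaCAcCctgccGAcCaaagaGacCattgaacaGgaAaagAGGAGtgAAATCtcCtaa

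RPC and KP1 spheroids differed in the thymosins in opposite directions. Tmsb4x ran from 662 to 3983 CPM with a median of 2148 CPM over 24 RPC libraries, against 134 to 1545 CPM with a median of 578 CPM over 28 KP1 libraries. Every RPC library was above the KP1 median, and 20 of 24 were above the highest KP1 library. Tmsb10 ran from 49.8 to 182 CPM with a median of 111 CPM in RPC, against 169 to 1099 CPM with a median of 442 CPM in KP1, and 22 of 24 RPC libraries lay below the lowest KP1 library. The log2 fold changes were 1.61 (SE 0.22) for Tmsb4x and -2.29 (SE 0.23) for Tmsb10. They kept their direction in all 10 alternatives, over ranges of 1.44 to 2.08 and -2.36 to -2.16. The median library held 20.3 times as much Tmsb4x as Tmsb10 in RPC and 1.19 times as much in KP1 spheroids.

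In KP1 cells both thymosins were lower in nude liver than in spheroids, while the fitted values of F1 liver lay within 1 SE of 0. Tmsb4x ran from 33.4 to 1130 CPM (median 337 CPM) in nude liver and from 178 to 1664 CPM (median 586 CPM) in F1 liver. The nude liver log2 fold change over spheroids was -1.09 (SE 0.23), with 6 of 33 libraries above the spheroid median, and the F1 value was 0.17 (SE 0.20), or -0.07 with no scaling beyond the library total. Within spheroids, the 19 libraries with little ERCC had a mean of 774 ± 306 CPM of Tmsb4x and the 9 others 440 ± 217 CPM, and against those 9 alone the nude liver value was -0.61. With the hepatocyte level as a covariate it was -2.02. Tmsb10 ran from 10.1 to 487 CPM (median 145 CPM) in nude liver and from 172 to 833 CPM (median 325 CPM) in F1 liver. Only 1 of 33 nude liver libraries was above the spheroid median, and 21 were below the lowest spheroid library. Its log2 fold change was -1.81 (SE 0.23) in nude liver, with a range over 13 alternatives of -2.06 to -1.67, and -0.19 (SE 0.21) in F1 liver. With no scaling beyond the library total the F1 value was -0.49, and 4 of 31 libraries were above the spheroid median in unscaled CPM. The sign of the F1 value changed in 3 of 14 alternatives, with a highest value of 0.08, but not with another choice of scaling. In the 5 F1 libraries of low Rpl19-ps11 the mean of Tmsb10 was 239 ± 71.5 CPM, against 354 ± 154 CPM in the other 26, and the log2 fold change over spheroids with those 5 alone was -1.13. F1 over nude liver was 1.26 (SE 0.24) for Tmsb4x and 1.65 (SE 0.24) for Tmsb10, and all 31 F1 libraries were above the nude liver median in Tmsb10. Without any scaling beyond the library total these values were 0.79 and 1.07, where the median of all genes was -0.15 in place of 0.26. With the 5 F1 libraries of low Rpl19-ps11 alone the Tmsb10 value was 0.71.

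Profilins bind monomers too, and promote their addition to filaments that formins extend. Pfn1 is the general form and Pfn2 the one enriched in neurons, which neuroendocrine cells resemble. Pfn1 (ENSMUSG00000018293, chromosome 11, 70651850 to 70654644) was near the floor of the captured libraries, with medians of 9.64 CPM in spheroids, 3.98 CPM in nude liver, 6.13 CPM in F1 liver and 10.5 CPM in RPC. Counts were present in 27 of 28, 29 of 33, 30 of 31 and 24 of 24 libraries, and no difference of Pfn1 in the main edgeR fits exceeded 2 SE. Its F1 over nude liver value was 0.99 (SE 0.55), with a range over 12 alternatives of 0.32 to 2.52. With the hepatocyte level as a covariate, nude liver over spheroids was -2.47 in place of -0.79 (SE 0.52). Pfn2 (ENSMUSG00000027805, chromosome 3, 57841895 to 57848079) had, with Arpc2, the largest fitted differences between environments of the 10 genes. It ran from 14.6 to 201 CPM with a median of 71.7 CPM in spheroids, from 0 to 53.7 CPM with a median of 10.2 CPM in nude liver, and from 3.50 to 111 CPM with a median of 25.4 CPM in F1 liver. No nude liver library reached the spheroid median, and 19 of 33 were below the lowest spheroid library, against 11 of 31 F1 libraries. The log2 fold changes were -2.80 (SE 0.46) in nude liver and -1.32 (SE 0.35) in F1 liver. RPC, at 23.7 to 283 CPM with a median of 70.7 CPM, overlapped KP1 spheroids over most of the range, with a log2 fold change of -0.06 (SE 0.27) whose sign changed in 4 of 10 alternatives.

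Cofilin, encoded by Cfl1 (ENSMUSG00000056201, chromosome 19, 5490455 to 5495201, plus strand), severs filaments. It was low in all captured groups, at 4.06 to 125 CPM (median 21.7 CPM) in KP1 spheroids, 0 to 29.6 CPM (median 18.1 CPM) in nude liver, 0.548 to 69.6 CPM (median 10.3 CPM) in F1 liver and 2.25 to 22.9 CPM (median 9.73 CPM) in RPC. Only 1 of 24 RPC libraries was above the KP1 median, a log2 fold change of -1.33 (SE 0.36). The liver values were -0.63 (SE 0.35) and -0.62 (SE 0.39), within 2 SE of 0.

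The 2 Arp2/3 subunits behaved differently, although the complex contains one of each. Arpc2 (ENSMUSG00000006304, chromosome 1, 74236084 to 74268209, plus strand) forms the core that binds the mother filament. It ran from 1.72 to 353 CPM with a median of 65.0 CPM in spheroids and from 50.1 to 1466 CPM with a median of 458 CPM in nude liver, where 22 of 33 libraries were above the highest spheroid library. F1 liver lay between, at 8.15 to 748 CPM with a median of 132 CPM. The log2 fold changes were 2.41 (SE 0.31) in nude liver, with a range over 13 alternatives of 2.35 to 2.97, and 1.16 (SE 0.37) in F1 liver. The 5 F1 libraries of low Rpl19-ps11 had a mean of 344 ± 262 CPM, against 154 ± 164 CPM in the other 26. Arpc3 (ENSMUSG00000029465, chromosome 5, 122391878 to 122414184, plus strand), a peripheral subunit, ran from 0 to 202 CPM (median 78.0 CPM) in spheroids, from 0.838 to 723 CPM (median 42.2 CPM) in nude liver and from 0 to 203 CPM (median 50.7 CPM) in F1 liver. Its mean in nude liver, 104 CPM against 75.6 CPM in spheroids, was above and its median below, and its log2 fold change of 0.37 (SE 0.46) was 0.045 (SE 0.44) without nude liver library 33, the one at 723 CPM. The median ratio of Arpc2 to Arpc3 was 0.888 in spheroids, 2.29 in F1 liver and 8.43 in nude liver. RPC had medians of 161 CPM for Arpc2 and 110 CPM for Arpc3.

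Tpm3 (ENSMUSG00000027940, chromosome 3, 90072649 to 90100902, plus strand) encodes a cytoplasmic tropomyosin. It ran from 3.08 to 180 CPM with a median of 29.9 CPM in spheroids, from 14.8 to 324 CPM with a median of 129 CPM in nude liver, and from 15.8 to 188 CPM with a median of 42.1 CPM in F1 liver. The log2 fold changes over spheroids were 1.91 (SE 0.30), with 31 of 33 libraries above the spheroid median, and 0.99 (SE 0.33), with 18 of 31. With the hepatocyte level as a covariate the nude liver value was 1.32. RPC, at 6.08 to 88.5 CPM with a median of 41.1 CPM, gave 0.08 (SE 0.30) against KP1.

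**Figure D2:**
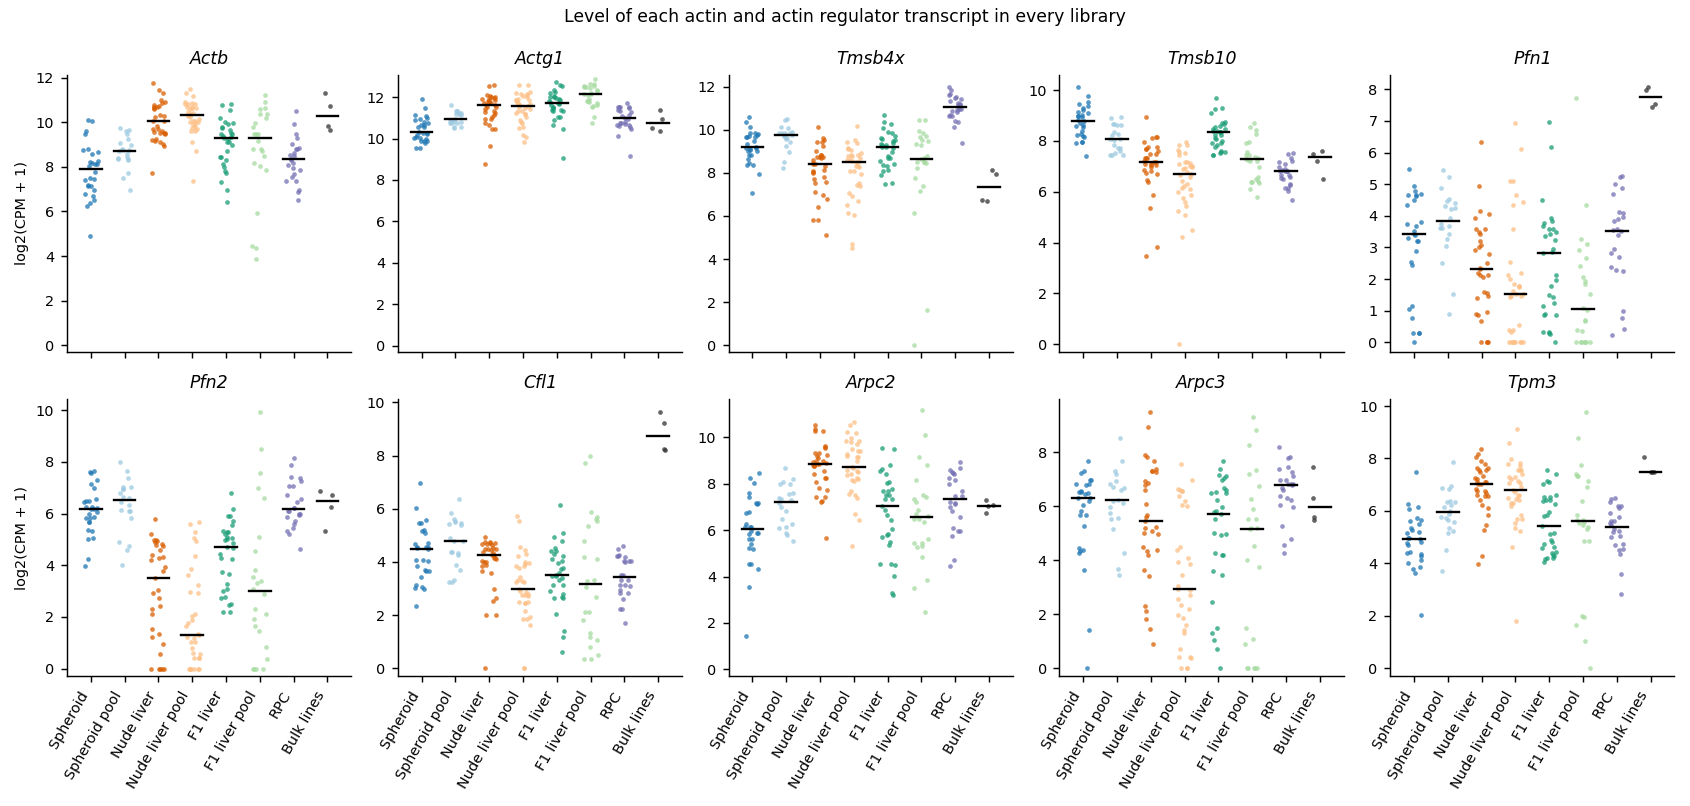
Log2(CPM + 1) of each of the 10 genes in every library, by group, with 1 point per library, black lines at group medians, and the 4 bulk lines in the last column of each panel. Tmsb4x is highest in RPC and Arpc2 in nude liver, while Pfn1 and Cfl1 are higher in the bulk lines than the median of any captured group.

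Summed over the 10 genes, spheroid libraries held 3297 ± 934 CPM (SD, n = 28), nude liver 5605 ± 1670 CPM (n = 33), F1 liver 5452 ± 1676 CPM (n = 31) and RPC 5304 ± 1058 CPM (n = 24). In edgeR's quasi-likelihood test over all genes (Benjamini-Hochberg adjusted p under 0.05), 4 of the 10 were called higher in nude liver than in spheroids, where 17.7% of the 7834 tested genes were, and 3 lower, where 16.3% were. In F1 liver against spheroids 4 were called higher (7.73% of tested genes) and 1 lower (4.91%). In F1 against nude liver 4 were called higher (11.2%) and 2 lower (7.98%). In RPC against KP1 spheroids 1 was called higher (10.3%) and 2 lower (11.6%). The genes were chosen with these contrasts in view, so nothing is read from these counts. Without scaling beyond the library total, higher calls over all genes went from 52.1% to 61.3% of calls, from 61.1% to 37.2%, from 58.5% to 22.8% and from 46.9% to 62.7%, in the same order, and the sign of all 21 calls among the 10 genes was kept. In limma-voom, calls over all genes were 414 higher and 1329 lower in F1 liver against spheroids, 600 and 1151 in F1 against nude liver and 2032 and 1049 in RPC, where edgeR gave 565 and 359, 794 and 564, and 882 and 999. DESeq2 gave 1457 higher and 1020 lower in RPC. The median log2 fold change of the 10 was -0.13, 0.17, 0.34 and 0.10 in these comparisons, beside -0.04, 0.22, 0.26 and 0.01 over all tested genes. Nude and F1 liver were both compared with the same 28 spheroid libraries, so those 2 columns of values share their controls.

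**Figure D3:**
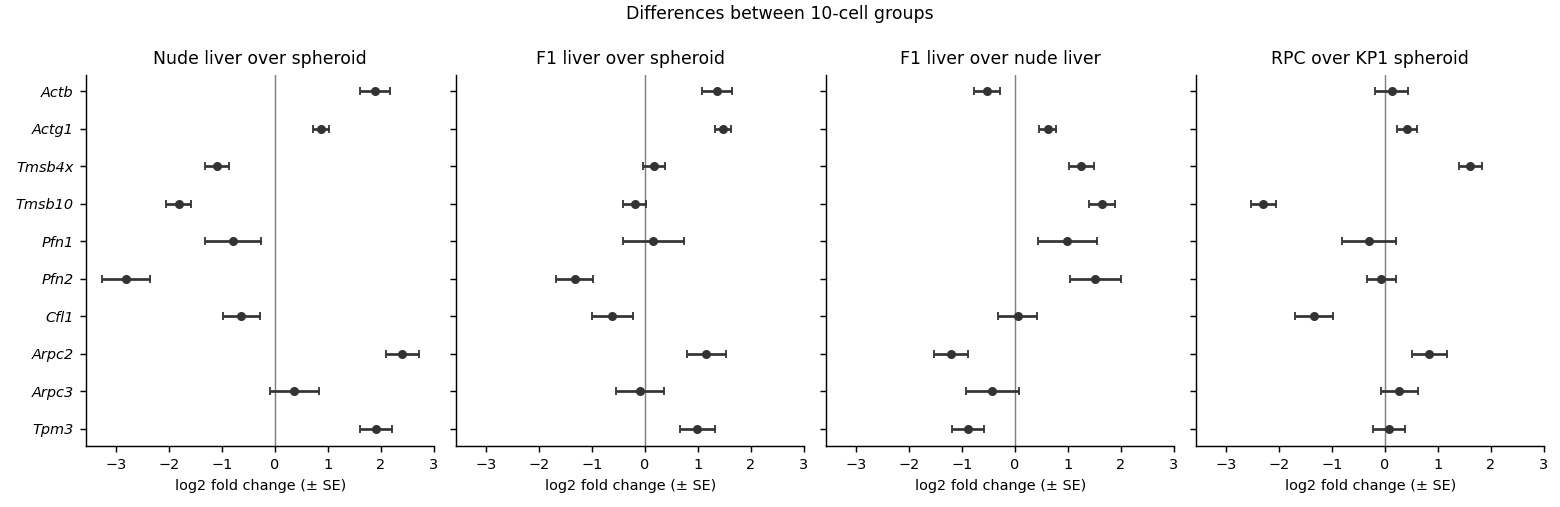
Log2 fold change with its SE for each of the 10 genes in the 4 comparisons of 10-cell groups, from edgeR with TMM scaling. Points right of 0 are higher in the group named first, with Pfn2 at -2.80 and Arpc2 at 2.41 in nude liver over spheroids at the ends of the plotted values.

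When the 7 captured groups were ordered by mean level for each gene, 58 of the 60 steps between neighbours were smaller than the larger of the 2 SDs. The exceptions were Tmsb4x between RPC (2217 ± 810 CPM) and spheroid pools (852 ± 285 CPM), and Tmsb10 between spheroid pools (292 ± 105 CPM) and F1 liver pools (173 ± 100 CPM). For Actb the order was nude liver pools (1336 ± 583 CPM), nude liver (1241 ± 738), F1 liver pools (768 ± 647), F1 liver (676 ± 449), spheroid pools (454 ± 208), RPC (396 ± 310) and spheroids (314 ± 280). Pools and 10-cell libraries of each liver environment were thus neighbours in this order. Across all 195 captured libraries the 10 genes varied largely apart from each other, with a highest Spearman correlation between any pair of 0.29 (Cfl1 and Tpm3) and 0.20 between the actins, on log2(CPM + 1) centred within each group, as a description over libraries that share depth and method.

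The bulk libraries gave a different profile. Cfl1 was at 304 CPM in KP1, 592 CPM in KP2, 292 CPM in KP3 and 802 CPM in KP5, and the highest captured 10-cell library of any group had 125 CPM. Pool-and-split libraries went higher, to 254 CPM of Cfl1 in F1 pool 22. Pfn1 was at 184, 266, 173 and 248 CPM in the same order of lines, against a median of 9.64 CPM in KP1 spheroid captures, and F1 pool 7 held 211 CPM, more than KP1 or KP3 bulk. Tmsb4x went the other way, at 106, 282, 101 and 247 CPM, and KP1 bulk was below the lowest KP1 spheroid 10-cell library. Actb was at 904, 1712, 801 and 2522 CPM and Actg1 at 1471, 2622, 1316 and 1996 CPM, so KP5 was the bulk line with more Actb than Actg1. Arpc2, at 106 to 155 CPM, and Pfn2, at 38.5 to 116 CPM, lay inside the range of the KP1 spheroid captures. There was 1 library per line, so values between bulk lines have no replicate check. Within KP1 the bulk and captured levels differ in protocol and in the number of cells taken, and these cannot be told apart.

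The rest of the pathway was followed through a list of 117 other actin genes, grouped by function, of which 115 were in the table. In nude liver against spheroids, 9 of 72 tested list genes rose and 8 fell (adjusted p under 0.05 over all genes, edgeR), a share of 23.6% beside 34.1% of all genes called in either direction, with a median log2 fold change of 0.23 beside -0.04. The rises with the smallest adjusted p were in Lcp1, a bundling protein of blood cells, at 4.35 (SE 0.79, adjusted p = 7.39e-06), and Actn4, an alpha-actinin that crosslinks filaments, at 2.27 (SE 0.44, adjusted p = 2.93e-05). Arpc4, another Arp2/3 subunit, rose from a median of 45.2 to 125 CPM (adjusted p = 0.00271), the pointed-end capping protein Tmod1 by 1.78 on the log2 scale (adjusted p = 0.00282) and the SRF cofactor Mkl1 by 1.92 (adjusted p = 0.00490). Abi2, of the WAVE complex that activates Arp2/3, rose by 3.50 (adjusted p = 1.62e-04), a value that was 1.97 without nude liver library 3, which alone held 2549 CPM. Sptan1, the alpha-spectrin of the membrane skeleton, changed by -2.61 (adjusted p = 4.13e-05), the myosin light chain Myl12a by -3.03 (adjusted p = 5.46e-05) and the small GTPase Cdc42 by -1.34 (adjusted p = 0.00105). Lasp1 and the cofilin paralog Cfl2 fell as well, by 1.90 and 1.82. Cyfip1, a WAVE complex subunit, passed the test at -2.55, but 20 of 33 nude liver libraries were above the spheroid median, and without spheroid library 23, at 797 CPM, it was at -0.11 (adjusted p = 0.886). Lcp1 is a leukocyte gene, and the leukocyte list stood at a median of 43.3 CPM in nude liver against 18.6 CPM in spheroids. Lcp1 itself had medians of 5.91 CPM in nude liver and 0.22 CPM in spheroids, near the floor. It was tested in 10 of the 13 alternatives and called in each of those. With the hepatocyte level as a covariate, 7 of the 17 calls were made again, 6 of them higher, and Myl12a, Cdc42, Lasp1, Cfl2 and Cyfip1 no longer passed. With the leukocyte level 16 were made again, including all 12 named here. Against the 9 ERCC-holding spheroid libraries alone 7 were, and Arpc4, Tmod1, Mkl1, Lasp1, Cfl2 and Cyfip1 were not among them.

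In F1 liver against spheroids, 6 of 69 list genes rose and 2 fell, a share of 11.6% beside 12.6% of all genes, with a median of 0.21 beside 0.22 over all genes. Flna, the crosslinker filamin A, rose by 1.10 (SE 0.29, adjusted p = 0.00554), from a median of 333 to 480 CPM. The Arp2/3 subunit Arpc5 rose by 1.48 (SE 0.41, adjusted p = 0.00921), and Sptan1 changed by -1.87 (SE 0.52, adjusted p = 0.0107). These 3 still passed without the library in which the gene was highest, but Sptan1 did not pass with the hepatocyte level as a covariate, and Flna and Arpc5 did not pass in limma-voom. The other 5 did not pass without that library: Tmod1 went from 1.90 to 1.53 (adjusted p = 0.0672) without F1 library 17, Arpc4 from 1.14 to 0.94 (adjusted p = 0.0899) and the actin depolymerizing factor Dstn from 0.97 to 0.52 (adjusted p = 0.217) without F1 library 4, Cap1 from 3.39 to 0.53 (adjusted p = 0.691) without F1 library 27, and the membrane linker Rdx from -1.02 to -0.82 (adjusted p = 0.0619) without spheroid library 23. With the hepatocyte level as a covariate Arpc4, Dstn and Rdx did not pass either, and with the leukocyte level Dstn did not. Dstn had a lower median in F1 liver (245 CPM) than in spheroids (352 CPM). None of the 8 passed in the same direction with the ERCC-holding spheroid libraries alone or with the F1 libraries of low Rpl19-ps11 alone.

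In F1 against nude liver, 6 of 72 list genes were called higher and 4 lower, a share of 13.9% beside 19.2% of all genes, with a median of 0.24 beside 0.26. Cdc42 rose by 1.39 (SE 0.38, adjusted p = 0.00483), Myl12a by 2.43 (SE 0.70, adjusted p = 0.00809), the Arp2/3 subunit Arpc1a by 1.51 (SE 0.43, adjusted p = 0.00810) and Flna by 0.95 (SE 0.29, adjusted p = 0.0122). Actn4 changed by -1.42 (SE 0.45, adjusted p = 0.0192) and the calponin Cnn2 by -2.27 (SE 0.79, adjusted p = 0.0312). Flna did not pass in limma-voom, and Cnn2 did not pass when the libraries of lower depth were left out. For 3 others the call was lost without 1 library. Cap1, at 3.01, was at -0.0047 (adjusted p = 0.997) without F1 library 27, which held 1330 CPM beside a group median of 2.16 CPM, itself below the nude liver median of 10.8 CPM. Ezr, which links filaments to the membrane, was called at 2.53 and was at 1.09 (adjusted p = 0.188) without F1 library 20, and the spectrin Sptbn1 was called at -1.35 and was at -0.99 (adjusted p = 0.140) without nude liver library 27. Msn, a paralog of Ezr, was called at -2.33 (adjusted p = 0.0138) and no longer passed the filter on low counts without nude liver library 26. None of the list passed with the 5 F1 libraries of low Rpl19-ps11 alone, and Cdc42, Myl12a and Arpc1a were the 3 of 10 called again with the hepatocyte level as a covariate. With the leukocyte level 9 were, all but Sptbn1.

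RPC against KP1 spheroids had the most calls, with 6 of 77 list genes higher and 15 lower, a share of 27.3% beside 21.9% of all genes, with a median of -0.01 beside 0.01. Tagln2, a calponin-family protein that binds actin, fell from a median of 298 CPM in KP1 to 0.201 CPM in RPC, a log2 fold change of -7.35 (SE 0.65, adjusted p = 8.58e-15). The highest RPC library held 22.0 CPM. Flna changed by -2.31 (SE 0.24, adjusted p = 7.09e-12) and the myosin light chain Myl6 by -1.89 (SE 0.23, adjusted p = 1.46e-09), with none of the 24 RPC libraries above the KP1 median in any of the 3. Sptbn1 (-2.34), Rdx (-1.52) and Fscn1 (-2.47), which bundles filaments in protrusions, fell as well. Enah, which protects growing ends from capping, rose by 1.77 (SE 0.34, adjusted p = 5.17e-05), in all 24 libraries against the KP1 median. Tmsb15b2, a further beta-thymosin, rose by 2.68 (SE 0.57, adjusted p = 2.56e-04), from a median of 2.97 to 33.5 CPM, beside the higher Tmsb4x and lower Tmsb10 of that line. Ezr rose by 1.77 (adjusted p = 0.00386), Cyfip2 by 1.45 (adjusted p = 0.0106) and Cnn3 by 1.99 (adjusted p = 0.0169). Add2 was called at 2.27 and was at 1.96 (adjusted p = 0.0630) without RPC library 16. By function, membrane and adhesion linkers made 2 rises and 3 falls among 9 tested genes, bundling and crosslinking genes 1 and 5 among 12, capping and severing genes 1 and 1 among 6, Arp2/3 activators 1 and 1 among 11, and monomer binders 1 and 0 among 6. There were 2 falls among 5 genes of the cofilin pathway and 1 each among 8 Arp2/3 subunits and 4 genes of non-muscle myosin II. The 6 formins and other nucleators, 4 tropomyosins and tropomodulins and 3 genes of SRF and its cofactors had 0 calls. Over all genes 10.3% were called higher and 11.6% lower, and the groups were not tested against that. With the 9 ERCC-holding KP1 libraries alone, 11 of the 21 were called again, and Tmsb15b2 (adjusted p = 0.0511), Ezr (adjusted p = 0.0529) and Add2 were not among them. With the KP1 libraries without ERCC alone Cnn3 did not pass (adjusted p = 0.0980). The endothelial and stellate list had a median of 1.36 CPM in RPC against 56.0 CPM in KP1 spheroids, and its part in these values was not tested.

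**Figure D4:**
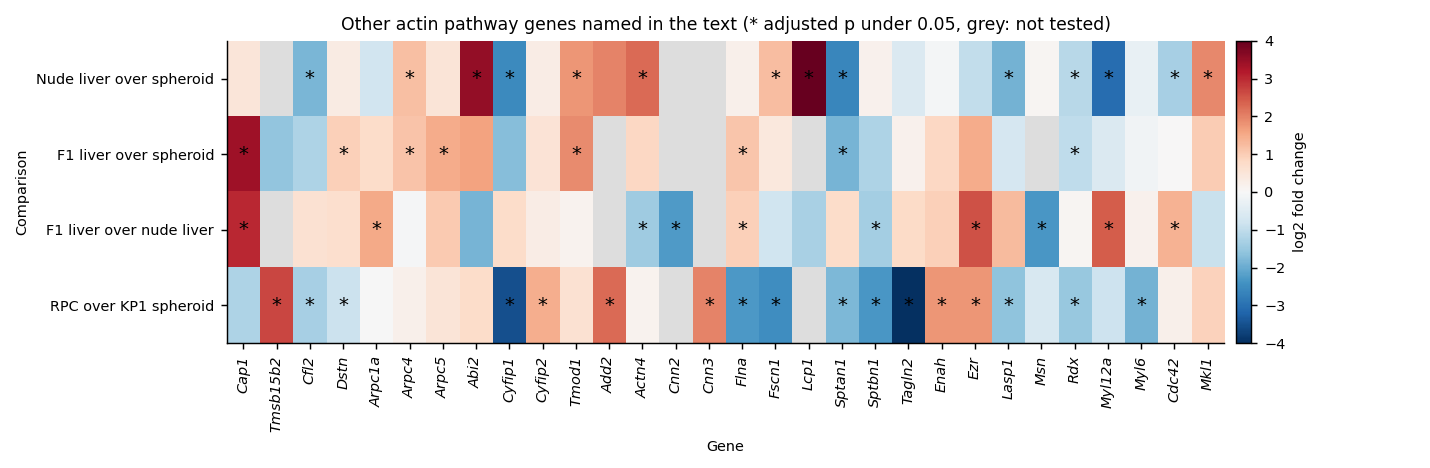
Log2 fold change of each other actin pathway gene named in the text, in the 4 comparisons, with stars where the adjusted p was under 0.05 and grey where a gene was not tested. The colour scale ends at 4 in each direction, so Lcp1 (4.35) and Tagln2 (-7.35) lie beyond it.

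Pool-and-split libraries are the study's controls for the spread between 10-cell libraries, and the labels do not give how many pools they came from. In spheroids, the SD of log2(CPM + 1) was larger between 10-cell libraries than between pools for 9 of the 10 genes, all but Pfn2. Actb had an SD of 1.21 between 28 captures and 0.73 between 20 pools, Actg1 0.58 and 0.32, Arpc3 1.75 and 1.28, and Pfn1 1.66 and 1.13. Within the spheroid libraries with and without ERCC it was larger for 7 and 8. In a limma test of absolute deviations, 0 of 8602 genes were called (0.0%), 508 with an unadjusted p under 0.05, and so 0 of the 10. In nude liver 3 of 10 genes had the larger SD in captures, and 0 of the 10 were called beside 0.777% of 9397 genes. In F1 liver 1 of 10 did, Actg1 (0.72 and 0.53), and 1 of the 10 was called beside 1.48% of 8759 genes. The 10 genes were chosen on these same levels, so nothing is read from these counts. Cfl1 had an SD of 1.17 in F1 captures and 2.31 in pools, and of 1.22 and 2.00 within the 26 and 19 libraries of high Rpl19-ps11. Within the libraries of high or of low Rpl19-ps11 alone, 0 of the 10 were called. Pools in F1 liver also had outlying members: Tmsb4x ran from 0 to 1389 CPM over the 24 pools and Pfn2 from 0 to 981 CPM, with a median of 6.93 CPM. ERCC counts made up a median of 13.2% of F1 pools and 2.16% of F1 captures, and 5.94% and 0.969% in nude liver, and the part of that gap in the spread was not tested. In the list of other pathway genes, Capzb in nude liver and Arpc1a in F1 liver were called wider in pools (adjusted p = 0.0354 and 0.0355, limma). Tln1 in F1 liver was the third call, but its mean was 15.5 CPM in captures and 1.82 CPM in pools, and since this scale narrows the spread near 0, no difference in spread is read from it. None of the 3 was called on log2(CPM + 5), and neither F1 call was made within the libraries of high or of low Rpl19-ps11 alone.

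**Figure D5:**
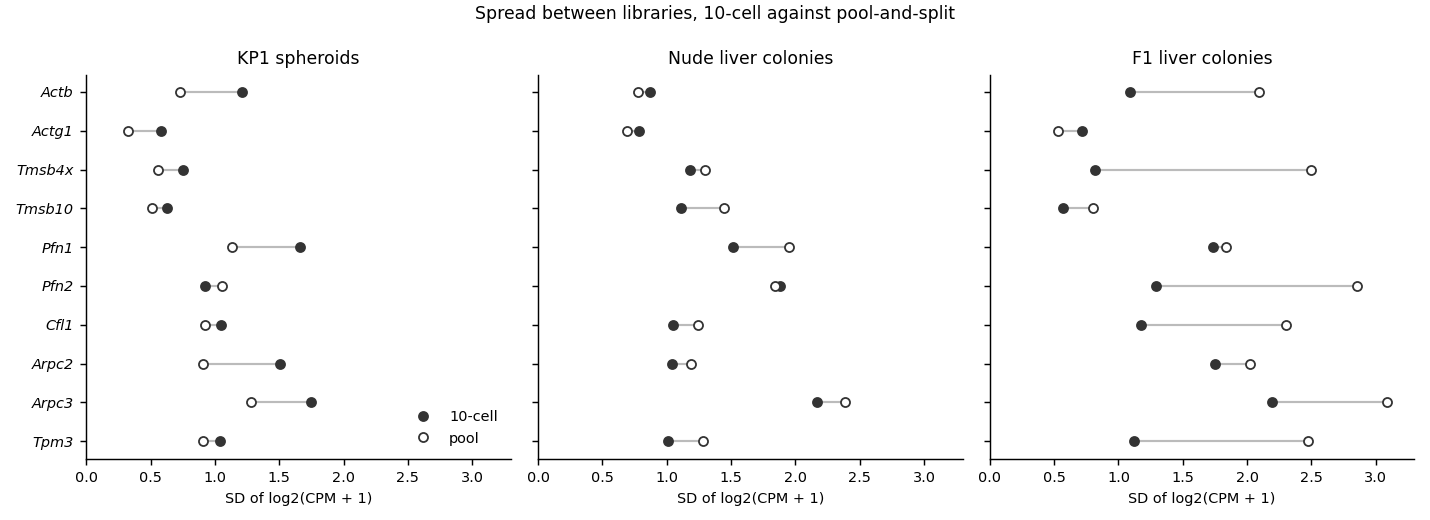
SD of log2(CPM + 1) between libraries for each of the 10 genes in KP1 spheroids, nude liver and F1 liver colonies, with filled points for 10-cell libraries and open points for pools. Filled points lie right of open ones for 9 genes in spheroids, 3 in nude liver and 1 in F1 liver.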

How the data were processed

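RNA-seq of 199 libraries was analysed from 1 table of expected counts (estimated counts per gene) that the authors deposited. The submitters' processing notes name RSEM, Bowtie2 and the builds GRCh38.p12 and GRCm38, without versions of the programs, and 10.7% of the deposited count values were not whole. Coordinates follow the table and were equal to GENCODE M21 (GRCm38) for all 10 genes. Counts were rounded, the 92 ERCC transcripts were left out of library sizes, and CPM was computed over 31581 genes.

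Mean levels of 10-cell groups were compared with edgeR 4.0.16 (R 4.3.3; TMM, filterByExpr, robust quasi-likelihood F test), with only the compared groups in the fit and Benjamini-Hochberg adjustment over all tested genes. Spread was compared with limma 3.58.1 on absolute deviations of log2(CPM + 1) from the group median, for genes of at least 5 CPM on average. DESeq2 1.42.0 and limma-voom were alternatives. From the pathway list, up to 6 called genes in each direction with the smallest adjusted p and at least 10 CPM in the higher group are named. On simulated data with 200 changed genes, nude liver against spheroid recovered 78.1% of 8-fold, 47.1% of 4-fold and 2.9% of 2-fold differences, with 5 false calls among 7834 genes, so smaller differences are often missed. No 2 libraries of a group looked like repeats of 1 library, the lowest chi-squared per degree of freedom being 29.1. Sequence-matched copies were sought with BLAST+ 2.17.0 (at least 95% identity over 100 bases and 80% of the copy). The 10 genes and the lists were chosen with earlier results of these data known.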

Additional observations from a re-analysis of the deposited data

How the results depend on the processing

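Among the 10 genes, 6 of 21 calls passed in every alternative run and the others failed at least one, with no sign turned. Nothing is read from these counts, since the genes were chosen on these levels. Pathway calls numbered 17, 8, 10 and 21 (nude over spheroid, F1 over spheroid, F1 over nude, RPC over KP1). With no filter they numbered 34, 28, 24 and 35, and all-gene calls went from 2669, 924, 1358 and 1881 to 8431, 5072, 6294 and 6115. limma-voom gave 31 (nude over spheroid), 17 (F1 over nude) and 34 (RPC) pathway calls, and 1743 (F1 over spheroid) and 3081 (RPC) all-gene calls, where DESeq2 gave 1417 for F1 over spheroid. The hepatocyte covariate gave 8, 4 and 4 pathway calls in the 3 liver comparisons and 949 all-gene calls in nude over spheroid. F1 over spheroid gave 2 pathway and 174 all-gene calls with the ERCC-holding spheroid libraries alone, and 2 and 379 with the F1 libraries of low Rpl19-ps11 alone, where F1 over nude gave 0 and 223. The causes of these changes were not tested. With RLE factors, higher calls made up 57.8% of all-gene calls in RPC.

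Leaving out the library in which a gene was highest, no scaling beyond the library total, the leukocyte covariate, the depth limit, the unblocked fits of shared numbers, the splits for spread and the covariates and splits for single genes were chosen after seeing the data. Signs of pathway genes turned for Cyfip1 in nude over spheroid (0.036 with DESeq2, 0.030 with the replicate block, 1.00 against ERCC-holding spheroids), for Dstn (-0.59) and Arpc4 (-0.17) in F1 over spheroid and Sptbn1 in F1 over nude (0.0011) with low Rpl19-ps11 libraries alone, and for Cap1 in F1 over nude (-0.13 with DESeq2, -1.36 with limma-voom, -1.96 with the block, -0.0047 without F1 library 27).

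Replicate numbers did not pair libraries: the correlation of same-numbered deviations had medians of 0.0007 to 0.0051, and at most 4 libraries of a comparison matched best with their own number. The replicate block gave 5 pathway calls in F1 over spheroid, of which Sptan1 and Rdx were among the 8 without it and Flna, Cap1, Arpc5, Tmod1, Dstn and Arpc4 were not called. It gave 6 pathway and 887 all-gene calls in F1 over nude. Of the 10 pathway genes called there without it, Actn4, Cdc42, Cnn2 and Myl12a were called again, and Cap1, Ezr, Arpc1a, Flna, Msn and Sptbn1 were not. Cyfip2 was not called with it in RPC.

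Spread calls were 0, 73 and 130 over all genes (spheroid, nude, F1) and 0, 1 and 2 in the pathway list. Deviations from the mean gave 24, 385 and 1094 over all genes and 1, 4 and 14 in the list. With log2(CPM + 5) they were 8 and 55 over all genes and 0 and 0 in the list (nude, F1), with at least 20 CPM 8 and 0 (nude), and with no filter 0 (nude) and 1 (F1) in the list. With the block they were 27 and 11 over all genes and 0 in the F1 list, and with the same libraries unblocked 43, 14 and 0. Within the spheroid libraries with ERCC 2 genes were called, and within F1 libraries of high and low Rpl19-ps11 39 and 0, with 0 and 0 in the list. A share of 25.5% of doubled SDs was recovered in nude liver, 6% in F1 liver and 0.5% in spheroids, so the spheroid count of 0 has little weight and most doubled SDs in F1 liver would be missed.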

Other observations

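The genes outside the 10 most like each of them were ranked by Spearman's rho of log2(CPM + 1), centred within each group, over 195 captured libraries and 7551 genes, as a description with no test. Tmsb10 was closest to the ribosomal protein gene Rpl37 (rho 0.57), Cox8a (0.55) and Rpl37rt (0.54). Cfl1 was closest to Ptma (0.46), Actb to Srrm2 (0.44), Tmsb4x to Erh and Lamp1 (both 0.40) and Actg1 to Mycl (0.36). The values share depth and capture method.

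Tmsb10 and Actg1 have 4 sequence-matched copies each in the table, and Tpm3 and Cfl1 have 1 each. Tmsb10 held 98.6% to 99.9% of the CPM summed with its copies in captured groups, and Actg1 held 99.9% or more. In the KP2 bulk library Tpm3 was at 180 CPM and made up 68.2% of the sum with Tpm3-rs7.

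Spheroid library 23 held the highest spheroid level of 4 pathway genes named above (Cyfip1, Sptan1, Myl12a and Rdx) and, among the 10 genes, of Tmsb4x at 1545 CPM and Actb at 1093 CPM.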
